A study of Mus musculus with 13 samples.

Results

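The chemokine ligand genes were taken as every single gene symbol on the array that starts with Cxcl, Ccl or Xcl and a digit, together with Cx3cl1. This gave 34 of the 22180 genes tested, each read through 1 probe set, the one with the highest mean over all arrays. Each level below is a deposited RMA log2 value of that probe set, RMA being the robust averaging that turns the probes of a set into 1 number. Gene expression was measured with Affymetrix whole-transcript arrays in S1 segments, the first stretch of the proximal tubule, from kidneys of male C57BL/6J mice. The LPS/LPS group had 5 arrays, from mice given 0.25 mg/kg of lipopolysaccharide (LPS, the endotoxin of Gram-negative bacteria, serotype 0111:B4) and then 5 mg/kg after 24 h, studied 24 h after the second dose. The LPS group had 4 arrays, from mice given 5 mg/kg once into the peritoneum and studied at 24 h. The control group had 4 arrays, from mice given saline, and its arrays are titled sham. No group carried a transgene or another drug in the labels, which state no age. Whether the arrays of a group are from different animals is not in the labels. The p-values therefore cover the spread between these arrays, which may be technical.

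Chemokines are small secreted proteins that bind to glycosaminoglycans on cell surfaces and guide leukocytes through G protein-coupled receptors. In LPS responses, Toll-like receptor signalling through NF-kB induces the neutrophil-attracting CXC ligands and the monocyte-attracting CC ligands, and interferons induce the CXCR3 ligands Cxcl9, Cxcl10 and Cxcl11. Tubule epithelium is known to be able to make several of them in kidney injury, and resident macrophages, endothelium and dendritic cells make them too.

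The 250 bases before the transcription start of 4 members on mouse chromosome 5 are shown because Cxcl1, Cxcl2 and Cxcl3 are textbook NF-kB targets with neighbouring, closely related promoters, while Cxcl9 had the lowest p of the ligands in LPS against control. The sequences are RefSeq's, of the assembly GRCm38.p6, printed 5′ to 3′ on the strand of the gene, and they end at the base before the start. Cxcl1 lies at chr5:90890995-90891244, Cxcl2 at chr5:90903649-90903898 and Cxcl3 at chr5:90785851-90786100, all on the plus strand, and Cxcl9 at chr5:92328080-92328329 on the minus strand. Capitals mark matches to the NF-kB-like letters GGGNNTTTC or their reverse complement GAAANNCCC.
Cxcl1: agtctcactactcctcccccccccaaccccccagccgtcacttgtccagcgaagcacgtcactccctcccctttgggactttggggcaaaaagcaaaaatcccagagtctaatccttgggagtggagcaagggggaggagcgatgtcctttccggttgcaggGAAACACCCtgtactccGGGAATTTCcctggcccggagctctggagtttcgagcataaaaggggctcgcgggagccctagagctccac
Cxcl2: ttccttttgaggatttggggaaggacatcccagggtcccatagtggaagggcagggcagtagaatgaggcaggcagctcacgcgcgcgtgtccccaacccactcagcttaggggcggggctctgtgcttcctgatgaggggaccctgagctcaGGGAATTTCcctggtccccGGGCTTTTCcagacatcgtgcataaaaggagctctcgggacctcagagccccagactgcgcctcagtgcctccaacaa
Cxcl3: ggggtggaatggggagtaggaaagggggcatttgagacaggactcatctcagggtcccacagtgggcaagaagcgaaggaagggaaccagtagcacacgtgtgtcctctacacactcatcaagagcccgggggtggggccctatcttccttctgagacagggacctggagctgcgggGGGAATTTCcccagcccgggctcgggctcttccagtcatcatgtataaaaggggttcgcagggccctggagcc
Cxcl9: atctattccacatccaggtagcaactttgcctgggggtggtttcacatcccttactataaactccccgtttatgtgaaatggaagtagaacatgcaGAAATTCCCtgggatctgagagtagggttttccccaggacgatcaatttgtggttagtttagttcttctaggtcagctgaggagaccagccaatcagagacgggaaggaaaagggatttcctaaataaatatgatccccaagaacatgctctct
The capitals stand 88 to 80 and 71 to 63 bases before the start of Cxcl1, 97 to 89 and 78 to 70 bases before that of Cxcl2, 73 to 65 bases before that of Cxcl3, and 154 to 146 bases before that of Cxcl9. Of the 23 ligand genes with a window in the RefSeq table, 7 held these letters, adding Ccl20, Ccl9 and Xcl1, while 3.72% of all 32851 windows of this length did. A looser form, GGGNNNTTC, overlaps the first one and was present in the windows of 9 ligand genes and in 11.8% of all windows. The interferon response element-like letters TTTCNNTTT were present in Cxcl10, Cxcl14 and Ccl28 and in 9.37% of windows, and the STAT-like letters TTCNNNGAA in Ccl17 and Cxcl14 and in 7.02%. A ligand gene was counted when any of its windows held the letters, whereas the percentages are of single windows, so the units differ. Both strands were searched, and the forms were chosen after several had been tried. A match is a run of letters, not a binding site, and a window without one says only that these letters are not in it.

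Array medians over all probe sets lay between 3.56 and 3.68, and 7 of 12 markers of the S1 and S2 segments stood above the background level defined below. The phosphate transporter Slc34a1 averaged 9.23 in LPS/LPS, 10.04 in LPS and 11.23 in control, while the S1 glucose transporter Slc5a2 averaged 4.13, 4.22 and 4.50 in the same groups and stayed below that level, as did Slc5a12. LPS replicate 3 stood apart in its markers of collecting duct, distal tubule and the loop, with a mean of 5.54 over 10 genes, against 3.92 to 4.26 on the other arrays. LPS/LPS replicate 5 and LPS replicate 4 had the highest olfactory receptor levels. The SD over all probe sets ran from 1.28 to 1.42 between the arrays. The arrays were split at the median SD into 7 wide and 6 narrow ones, sizes that follow from the split. LPS replicate 1 was the only narrow LPS array.

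Most chemokine ligand genes, like most of all genes tested, did not stand above the level of genes taken as silent in this tissue. No detection calls were used here, so the background level was set at the 95th percentile of the means of 1105 olfactory receptor (Olfr) genes, which was 4.77, with an Olfr median of 2.77. The mean over all arrays was above it for 5 of the 34 ligands (14.7%), beside 2207 of all genes (9.95%). By group, 5 ligands had a mean above it in LPS/LPS, 4 in LPS and 4 in control, and 6 had at least 1 group mean above it. Of those in LPS/LPS, Cxcl14 was barely above it, at 4.774 against 4.771. The mean was above the Olfr median for 33 of the 34, and only Ccl12, a mouse ligand of Ccr2, lay below it, at 2.69. On every array the median over all genes tested, 3.68 to 3.81, also stood above that array's Olfr median, 2.50 to 3.23. The share of all genes above the Olfr median was not counted, so nothing particular to the ligands was read from the 33. Probe sets differ in affinity, so a level near or above that of the Olfr genes describes the signal of a probe set, and no ligand's level was set against another's. Just inside the level stood Ccl9 at 4.88 and Cxcl16 at 4.79, and just outside it Cxcl14 at 4.68 and Ccl24 at 4.61. In whole segments, fewer cells that make a ligand and less RNA in each cell cannot be told apart.

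**Figure D1:**
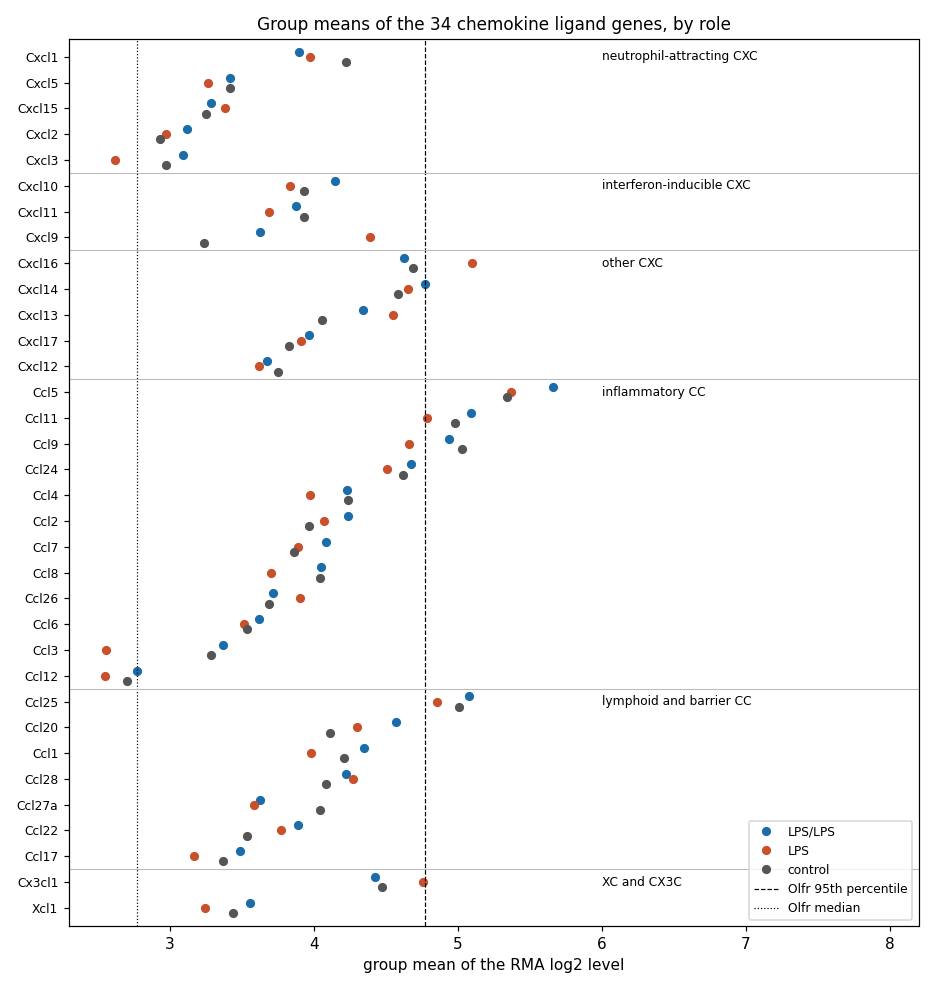
Group means of the RMA log2 level (x axis) for the 34 chemokine ligand genes, ordered by role, in LPS/LPS (blue), LPS (orange) and control (grey), with the Olfr 95th percentile of 4.77 dashed and the Olfr median of 2.77 dotted. Most points lie between both lines, and those of Ccl5, Ccl25 and Ccl11 lie right of the dashed line in every group.

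When each array was held against its own Olfr 95th percentile, the number of ligands above it changed from array to array. It was 3, 4, 2, 3 and 0 on the LPS/LPS arrays, 6, 5, 5 and 2 on the LPS arrays, and 1, 5, 4 and 1 on the control arrays. The groups overlapped in this count. The array's own Olfr 95th percentile was highest on LPS/LPS replicate 5, at 5.91, where no ligand was above it, and on LPS replicate 4, at 5.55, where 2 were. The median over the 34 ligands lay between 3.84 and 4.03 on the LPS/LPS arrays, between 3.81 and 4.02 on the LPS arrays and between 3.82 and 4.03 on the control arrays, with no separation of the groups. With both arrays of highest Olfr level left out, 4 ligands were above the level over all arrays; Cxcl16 was the one lost in 6 of the 13 means that left out 1 array.

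**Figure D2:**
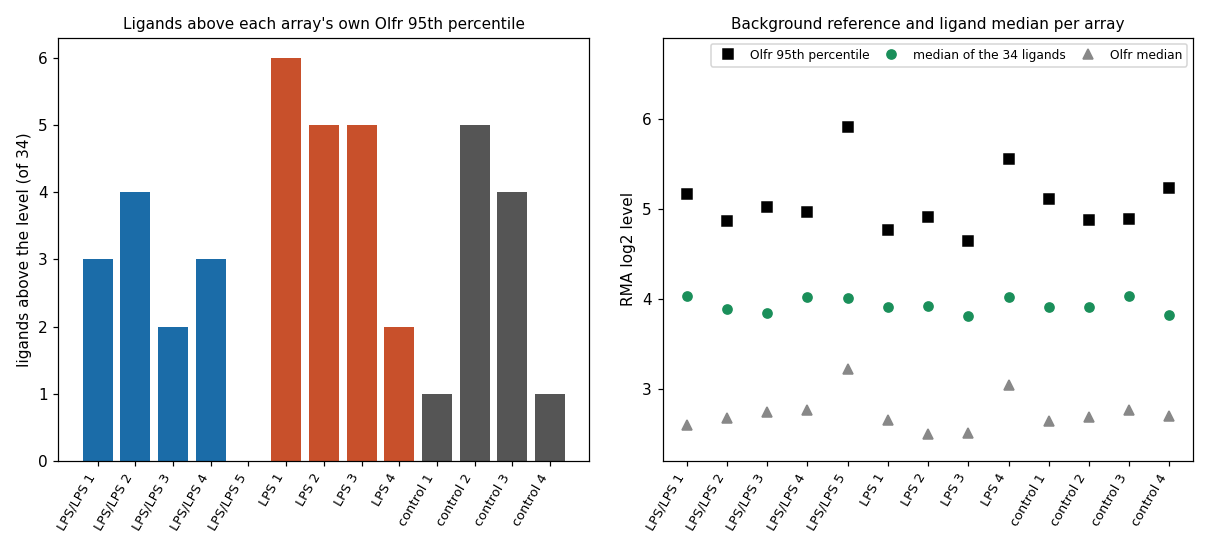
Left, the number of ligands (of 34) above each array's own Olfr 95th percentile; right, the RMA log2 level of that percentile (squares), of the ligand median (circles) and of the Olfr median (triangles) on each array, with LPS/LPS, LPS and control arrays from left to right. The count runs from 0 on LPS/LPS replicate 5 to 6 on LPS replicate 1, and the ligand medians stay between 3.81 and 4.03.

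Of the 5 ligands that stood above the level, 4 were CC chemokines. Ccl5, the T cell and monocyte attractant RANTES that binds Ccr1 and Ccr3 among others (probe set 17266946), had levels of 6.01, 5.70, 5.27, 5.65 and 5.69 on the LPS/LPS arrays, 5.01, 5.08, 4.80 and 6.60 on the LPS arrays, and 5.42, 5.22, 5.25 and 5.47 on the control arrays. All 13 values were above 4.77, the groups overlapped, and LPS replicate 4 was far above the other 3 LPS arrays. The level of 4.77 comes from means over all arrays. On LPS/LPS replicate 5 the value of 5.69 was below that array's own Olfr 95th percentile of 5.91. The LPS minus control difference of 0.03 (SE 0.31, limma adjusted p = 0.988) was -0.38 without that array. Ccl25, known for drawing Ccr9-bearing T cells to thymus and gut, stood at 5.33, 4.95, 4.85, 5.29 and 4.96 in LPS/LPS, 4.94, 5.02, 4.74 and 4.71 in LPS, and 5.08, 4.95, 5.02 and 4.99 in control. Its 3 group ranges overlapped, and the control values lay closest together.

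Ccl11, the eosinophil attractant eotaxin, had 4.71, 5.22, 5.47, 5.15 and 4.92 in LPS/LPS, 4.79, 4.92, 4.21 and 5.22 in LPS, and 4.79, 5.32, 5.10 and 4.72 in control. Ccl9, a mouse ligand of Ccr1, had 5.27, 4.98, 4.82, 4.37 and 5.27 in LPS/LPS, 4.96, 4.39, 4.58 and 4.74 in LPS, and 5.07, 5.30, 4.89 and 4.87 in control. For both genes the groups overlapped, and the largest difference of the pair was -0.37 for Ccl9 in LPS minus control (SE 0.20, limma adjusted p = 0.779). Cxcl16, which is made as a membrane-bound ligand of Cxcr6 and shed by proteases, had 4.97, 4.14, 4.51, 4.79 and 4.72 in LPS/LPS, 4.61, 4.97, 5.07 and 5.76 in LPS, and 4.81, 4.30, 4.74 and 4.91 in control. LPS replicate 4 again held the highest value, and the LPS range overlapped both others. Its LPS/LPS minus LPS difference was -0.48 (SE 0.22, limma adjusted p = 0.58), and its LPS minus control difference was 0.41 (SE 0.24, limma adjusted p = 0.793). Without LPS replicate 4 these were -0.26 and 0.19.

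Cxcl14, an epithelial chemokine present in many resting tissues, reached the level through its LPS/LPS mean alone, with 5.04, 4.72, 4.63, 4.73 and 4.75 there, 4.75, 4.80, 4.45 and 4.61 in LPS, and 4.73, 4.51, 4.60 and 4.51 in control. That mean was 4.774, barely above the level of 4.771. LPS/LPS replicate 1 stood above the other arrays of its group, and the groups overlapped. Ccl24, or eotaxin-2, stayed below the level in every group mean, with 4.32, 4.71, 4.89, 4.81 and 4.66 in LPS/LPS, 4.59, 4.52, 4.88 and 4.04 in LPS, and 4.63, 4.73, 4.58 and 4.55 in control. Both of its treated groups spread around the narrow control range.

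**Figure D3:**
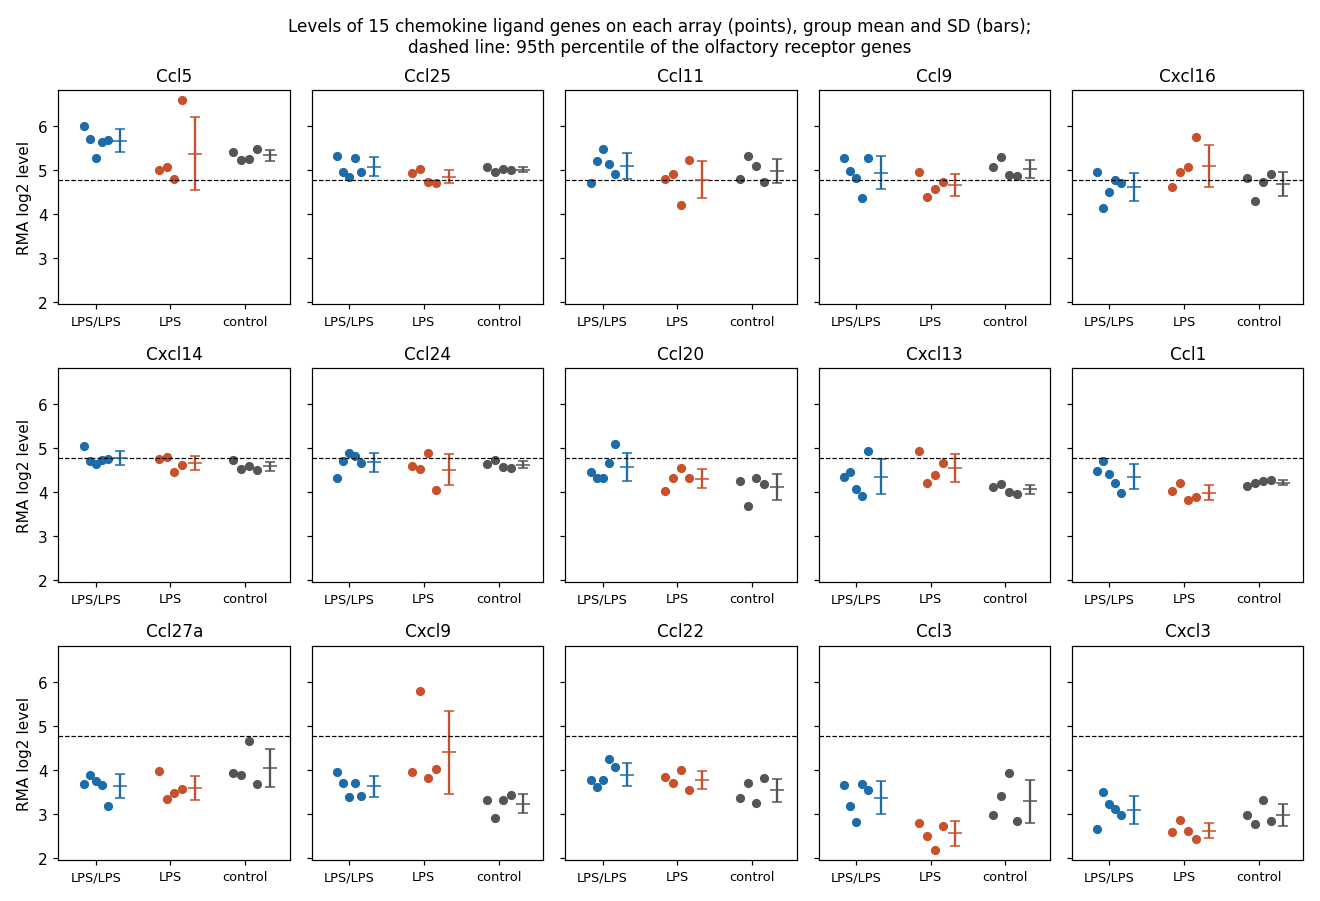
RMA log2 level (y axis) of 15 chemokine ligand genes on each array, in LPS/LPS (5 points), LPS (4 points) and control (4 points), with group mean and SD as bars and the Olfr 95th percentile of 4.77 dashed. The high LPS points of Ccl5 (6.60) and Cxcl9 (5.79) each belong to 1 array, and the LPS points of Ccl3 lie below the control points.

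No chemokine ligand gene passed the test in any comparison. In LPS against control, 0 of the 34 ligands were called by limma at a Benjamini-Hochberg adjusted p of 0.05, and 0 of all 22180 genes were (0%). At an unadjusted p under 0.05, 3 ligands were found, where 6.43% of all genes were found. Of these ligands 2 were higher in LPS, beside 3.49% of all genes, and 1 was lower, beside 2.95%. The LPS and control arrays did not overlap for those 3 ligands, where 3.15% of all genes did not overlap. The median ligand difference was -0.10, beside -0.017 over all genes and -0.040 over the Olfr genes, and was -0.025 without LPS replicate 3. Of the ligands, 15 of the 34 (44.1%) were higher in LPS, beside 47.1% of all genes. The 3 ligands, Cxcl9, Cxcl13 and Ccl3, are described below with their roles, and nothing particular to the list was read from the count.

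In LPS/LPS against control, limma called 0 of the 34 ligands and 2 of all genes (0.00902%). At an unadjusted p under 0.05 there was 1 ligand, Ccl20, beside 4.70% of all genes. It was higher in LPS/LPS, beside 2.62%, and 0 ligands were lower, beside 2.07%. No ligand had groups that did not overlap, beside 1.54%. The median difference was 0.098, beside 0.028 over all genes and 0.082 over the Olfr genes, and was 0.059 without control replicate 1. Of the 34 ligands, 26 (76.5%) were higher in LPS/LPS, beside 55.8% of all genes and 60.5% of the Olfr genes. The LPS/LPS and LPS comparisons use the same 4 control arrays.

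In LPS/LPS against LPS, limma called 0 of the 34 ligands and 14 of all genes (0.0631%). At an unadjusted p under 0.05 there were 4 ligands, beside 8.61% of all genes. Of these, 3 were higher in LPS/LPS, beside 4.13%, and 1 was lower, beside 4.49%. The groups of 1 ligand did not overlap, beside 2.40%. The median difference was 0.168, beside 0.049 over all genes and 0.124 over the Olfr genes, and 26 of the 34 ligands (76.5%) were higher in LPS/LPS, beside 59.3% and 67.6%. Some marker lists also leaned one way in these comparisons, with 0 genes called. Of 12 S1 and S2 markers, 12 were lower in LPS/LPS than in LPS, with a median of -0.74 and 6 at an unadjusted p under 0.05. In LPS/LPS against control 11 were lower, with a median of -0.53. The mean of these markers was 6.66 on LPS replicate 3, against 4.95 to 5.85 on the other LPS arrays. Of 8 lymphocyte markers, 8 were higher in LPS/LPS than in LPS, with a median of 0.21, and 2 were higher in LPS/LPS than in control, with a median of -0.040. A moderated F-test over the 3 groups called 0 ligands and 14 genes (0.0631%), with 3 ligands at an unadjusted p under 0.05, beside 6.91% of all genes. The lowest adjusted p of a ligand in it was 0.535. These shares of ligands move in the same direction as those of the Olfr genes, and the part of the array background or of these marker lists in them was not tested.

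**Figure D4:**
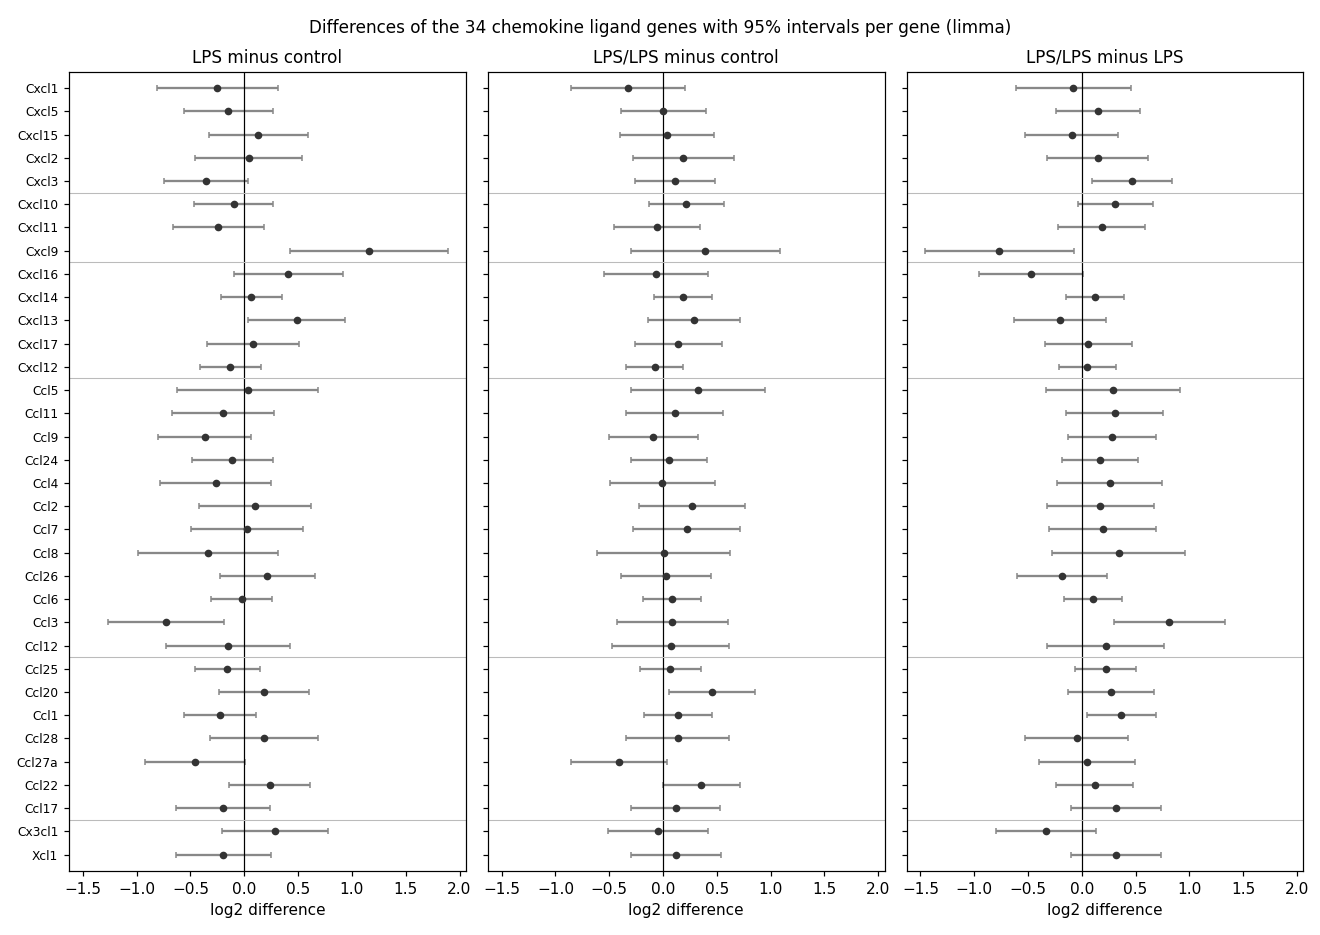
Log2 differences (x axis) of the 34 chemokine ligand genes with limma's 95% interval per gene, unadjusted for the number of genes, for LPS minus control, LPS/LPS minus control and LPS/LPS minus LPS. Most intervals cross 0; those of Cxcl9 (1.16) and Ccl3 (-0.73) lie farthest from it in LPS minus control.

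Among the interferon-inducible ligands, which draw activated T cells and natural killer cells through Cxcr3, Cxcl9 (probe set 17449710) had the lowest p of the ligands in LPS against control. Its levels were 3.95, 3.71, 3.38, 3.71 and 3.40 in LPS/LPS, 3.95, 5.79, 3.82 and 4.01 in LPS, and 3.31, 2.91, 3.31 and 3.42 in control. Every LPS array lay above every control array, and 1 array, LPS replicate 2, lay far above the rest, the only one of the 13 above 4.77. The LPS minus control difference was 1.16 (SE 0.34, 95% interval 0.43 to 1.89, limma adjusted p = 0.547), and without LPS replicate 2 it was 0.69 (adjusted p = 0.459). LPS/LPS minus LPS was -0.77 (SE 0.32, limma adjusted p = 0.532) with overlapping groups, and -0.30 without that array. Within the wide arrays the LPS minus control difference was 1.18. Within the narrow arrays it was 0.85, from the single LPS array there, so that this value has no spread of its own in LPS.

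The other CXCR3 ligands had lower means in LPS than in control, with overlapping groups. Cxcl10 averaged 4.14 ± 0.30 in LPS/LPS, 3.83 ± 0.15 in LPS and 3.93 ± 0.21 in control (SD, n = 5, 4 and 4), and its LPS minus control difference was -0.10 (95% interval -0.47 to 0.27). Cxcl11 averaged 3.87 ± 0.33, 3.69 ± 0.15 and 3.93 ± 0.33 in the same order of groups, with a LPS minus control difference of -0.24 (95% interval -0.67 to 0.18). Cxcl9 was singled out by its low p, so its interval was not set against these, and the difference between the genes was not tested.

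The neutrophil-attracting CXC ligands, a list of Cxcr2 ligands and related ones, were below the Olfr level and none passed the test. The promoters of 3 of them are printed above. Cxcl1, or KC, had 3.37, 4.61, 3.48, 4.31 and 3.73 in LPS/LPS, 3.80, 4.17, 3.91 and 4.02 in LPS, and 4.05, 4.68, 4.34 and 3.83 in control. Its LPS arrays fell inside the range of the LPS/LPS arrays, and the LPS minus control difference of -0.25 had a 95% interval of -0.81 to 0.31 (limma adjusted p = 0.888). Cxcl2, or MIP-2, had 3.08, 2.69, 2.70, 3.47 and 3.66 in LPS/LPS, 2.70, 3.27, 2.98 and 2.94 in LPS, and 2.79, 2.56, 3.20 and 3.17 in control, with a LPS minus control difference of 0.04 (95% interval -0.45 to 0.53). All its groups overlapped.

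Cxcl3 had 2.65, 3.49, 3.22, 3.11 and 2.97 in LPS/LPS, 2.58, 2.85, 2.61 and 2.43 in LPS, and 2.98, 2.78, 3.32 and 2.83 in control. The LPS values were the low ones, with 1 of 4 inside the control range, and LPS/LPS minus LPS was 0.47 (SE 0.17, limma adjusted p = 0.466). Cxcl5 and Cxcl15, the epithelial members of the group in mice, averaged 3.42 and 3.29 in LPS/LPS, 3.27 and 3.38 in LPS, and 3.42 and 3.25 in control. Their differences lay between -0.15 and 0.15 in the 3 comparisons.

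Among the other CXC ligands, the B cell attractant Cxcl13 had levels of 4.35, 4.46, 4.08, 3.90 and 4.93 in LPS/LPS, 4.94, 4.21, 4.39 and 4.66 in LPS, and 4.10, 4.18, 4.00 and 3.95 in control. Every LPS array lay above every control array, by a narrow margin, and the LPS/LPS arrays overlapped both groups. The LPS minus control difference was 0.49 (SE 0.21, limma adjusted p = 0.725). Cxcl12, the stromal ligand of Cxcr4 that retains progenitor cells, averaged 3.67 ± 0.12 in LPS/LPS, 3.62 ± 0.20 in LPS and 3.75 ± 0.08 in control (SD, n = 5, 4 and 4). Cxcl17, a mucosal chemokine, averaged 3.97 ± 0.32, 3.91 ± 0.27 and 3.83 ± 0.26 in the same groups.

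Of the inflammatory CC ligands, Ccl3 (MIP-1 alpha, probe set 17266967) was the one whose LPS arrays stood apart from both other groups. It had 3.65, 3.19, 2.80, 3.68 and 3.53 in LPS/LPS, 2.80, 2.51, 2.18 and 2.74 in LPS, and 2.97, 3.40, 3.93 and 2.83 in control. All 4 LPS values were below all control values and below all LPS/LPS values, the last by less than 0.01. LPS minus control was -0.73 (SE 0.25, limma adjusted p = 0.64) and LPS/LPS minus LPS was 0.81 (SE 0.24, limma adjusted p = 0.344). Its means were 3.37 in LPS/LPS, 2.56 in LPS, below the Olfr median of 2.77, and 3.28 in control, and LPS/LPS minus LPS was 1.11 in the wide arrays and 0.43 in the narrow ones, where LPS had 1 array.

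No other inflammatory CC ligand showed such a separation. Ccl2, or MCP-1, had 4.12, 3.67, 4.94, 4.35 and 4.12 in LPS/LPS, 3.78, 3.84, 3.98 and 4.68 in LPS, and 3.89, 3.96, 4.02 and 4.02 in control, so that the treated groups spread on both sides of a tight control group. Its LPS minus control difference was 0.10, with a 95% interval of -0.42 to 0.62. Ccl7 averaged 4.08, 3.89 and 3.87, Ccl8 4.05, 3.71 and 4.04, and Ccl12 2.78, 2.55 and 2.71 in LPS/LPS, LPS and control. Ccl4, or MIP-1 beta, averaged 4.23, 3.98 and 4.24, Ccl6 3.62, 3.51 and 3.54, and Ccl26 3.72, 3.90 and 3.69 in those groups. Of the 12 inflammatory CC ligands, limma called 0 in each comparison.

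The lymphoid and barrier CC ligands held the lowest p of LPS/LPS against control. Ccl20, the Ccr6 ligand of epithelial barriers, had 4.46, 4.32, 4.32, 4.67 and 5.08 in LPS/LPS, 4.01, 4.32, 4.54 and 4.32 in LPS, and 4.25, 3.69, 4.33 and 4.19 in control. The LPS/LPS values were the high ones, 3 of 5 above every control array, and the difference was 0.46 (SE 0.19, limma adjusted p = 0.987). Ccl22, a Ccr4 ligand, had 3.76, 3.61, 3.76, 4.24 and 4.07 in LPS/LPS, 3.85, 3.69, 4.00 and 3.54 in LPS, and 3.37, 3.70, 3.25 and 3.82 in control, with overlapping groups and a LPS/LPS minus control difference of 0.35 (SE 0.17, limma adjusted p = 0.987).

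Ccl27a, the skin-homing ligand of Ccr10, had 3.68, 3.88, 3.74, 3.66 and 3.18 in LPS/LPS, 3.98, 3.33, 3.47 and 3.57 in LPS, and 3.93, 3.89, 4.66 and 3.68 in control. Control replicate 3 was its highest array, and the differences were -0.41 for LPS/LPS minus control (SE 0.21, limma adjusted p = 0.987) and -0.46 for LPS minus control (SE 0.22, limma adjusted p = 0.768). Without control replicate 3 they were -0.20 and -0.25. Ccl1, the Ccr8 ligand, had 4.47, 4.71, 4.40, 4.21 and 3.97 in LPS/LPS, 4.02, 4.21, 3.83 and 3.88 in LPS, and 4.13, 4.21, 4.24 and 4.27 in control, and LPS/LPS minus LPS was 0.37 (SE 0.15, limma adjusted p = 0.502) with overlapping groups. Ccl28 averaged 4.22, 4.27 and 4.09, and Ccl17 averaged 3.48, 3.17 and 3.37, in LPS/LPS, LPS and control. Ccl19, the Ccl21 genes and Ccl27b have only probe sets with several symbols and were not analysed here.

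Cx3cl1, or fractalkine, a membrane-anchored adhesion ligand of endothelium and epithelium, had 4.35, 4.78, 4.47, 4.05 and 4.48 in LPS/LPS, 4.83, 4.48, 5.27 and 4.46 in LPS, and 4.25, 4.98, 4.06 and 4.60 in control. LPS replicate 3, the array with high distal, S1 and S2 markers, held its highest value. The groups overlapped, and LPS minus control was 0.29 (SE 0.23, limma adjusted p = 0.852). Xcl1, the lymphocyte ligand of Xcr1, averaged 3.56, 3.24 and 3.44 in LPS/LPS, LPS and control.

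The signalling receptors measured here for the ligands above the Olfr level were themselves below it. Ccr1, Ccr3, Ccr9 and Cxcr6 averaged 3.63, 2.12, 3.58 and 3.14 in LPS/LPS, 3.38, 1.93, 3.54 and 3.11 in LPS, and 3.56, 1.82, 3.38 and 3.13 in control. Of 17 chemokine receptors measured, Cx3cr1 at 5.73 and Ccr7 at 4.87 stood above the level, and limma called 0 in each comparison. The lowest adjusted p among receptors was 0.877 for Ccr10 in LPS minus control (-0.25), 0.987 for Ccr3 in LPS/LPS minus control (0.30) and 0.49 for Cx3cr1 in LPS/LPS minus LPS (0.40, SE 0.16). Of 5 decoy receptors, which bind chemokines without the usual signalling, Ackr2, which binds many inflammatory CC ligands, stood above the level at 4.94 and none was called; the lowest p values were those of Ackr1 (-0.15) in LPS minus control and Ackr4 (0.32 and 0.22) in the LPS/LPS comparisons.

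Of 10 genes that trim, shed or present chemokines, none was called and Sdc3 alone stood above the level. Sdc4, the syndecan whose heparan sulfate chains hold chemokines at the cell surface, had 4.25, 3.95, 4.50, 3.56 and 4.30 in LPS/LPS, 5.80, 4.81, 5.81 and 5.06 in LPS, and 5.09, 4.39, 3.49 and 4.16 in control. Every LPS array lay above every LPS/LPS array, with a LPS/LPS minus LPS difference of -1.26 (SE 0.30, limma adjusted p = 0.203), and LPS minus control was 1.09 (SE 0.32, limma adjusted p = 0.547). In LPS/LPS minus control, Sdc2 had the lowest p of the list, with -0.42. The platelet chemokines Pf4 and Ppbp, outside the symbol rule, were below the level and not called, and Ppbp had the lower p in all 3 comparisons (-0.38 in LPS minus control, -0.06 in LPS/LPS minus control and 0.32 in LPS/LPS minus LPS).

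Upstream of the ligands, the LPS co-receptor Cd14 had 3.62, 4.00, 4.47, 3.74 and 3.42 in LPS/LPS, 4.78, 6.16, 4.87 and 5.05 in LPS, and 3.61, 3.68, 3.87 and 3.72 in control. Every LPS array lay above every array of both other groups, and LPS replicate 2, the array with the highest Cxcl9, also had the highest Cd14. LPS minus control was 1.50 (SE 0.28, limma adjusted p = 0.11) and LPS/LPS minus LPS was -1.36 (SE 0.27, limma adjusted p = 0.0919). The receptor Tlr4 averaged 3.04 in LPS/LPS, 2.81 in LPS and 2.72 in control, near the Olfr median. Of 19 genes of LPS sensing and NF-kB measured, 0 stood above the level over all arrays and 0 were called, and their median LPS minus control difference was 0.15. The lowest p in LPS/LPS minus control was that of Lbp (0.17). Of 12 cytokines known to be induced with chemokines, 0 stood above the level and 0 were called; the lowest p values were those of Il10 in LPS minus control (-0.38), Csf2 in LPS/LPS minus control (0.52) and Il1a in LPS/LPS minus LPS (-0.30).

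Markers of cells that make or follow chemokines were mostly below the level. So were most of all genes tested, of which 9.95% stood above it. None of 12 macrophage and monocyte markers, 8 neutrophil markers, 8 endothelial markers and 4 platelet markers stood above it, and 1 of 8 lymphocyte markers did, Nkg7 at 5.15. Of 8 fibroblast and mural cell markers, 2 stood above it. The summed linear level of the macrophage and monocyte list lay between 170 and 195 in LPS/LPS, 167 and 210 in LPS, and 160 and 175 in control. That of the lymphocyte list lay between 123 and 139 in LPS/LPS, 99 and 146 in LPS, and 122 and 149 in control. LPS replicate 3 held both the macrophage value of 210 and the lymphocyte value of 99. The other LPS arrays had 167 to 170 and 110 to 146. The endothelial sum was higher on every treated array, at 125 to 136 in LPS/LPS and 126 to 164 in LPS, against 116 to 122 in control, and limma called 0 of its 8 genes. On LPS replicate 2, where Cxcl9 was highest, the macrophage and lymphocyte sums were 167 and 111, inside the range of the other LPS arrays for lymphocytes and the lowest of the LPS arrays for macrophages. On LPS replicate 4, where Ccl5 and Cxcl16 were highest, they were 170 and 110. The part of these cells in the ligand levels was not tested.

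Over the 10 marker lists, limma called 0 genes in each comparison. In LPS minus control, the lowest p of each list belonged to Pck1 (1.25, S1 and S2), Cyp7b1 (0.28, S3), Slc12a3 (0.94, distal nephron), Wt1 (-0.44, podocyte), Pecam1 (0.75, endothelium), Pdgfrb (-0.27, mural cells), Ly6c2 (0.43, monocytes), Elane (-0.36, neutrophils), Klrb1c (-0.86, lymphocytes) and Ppbp (-0.38, platelets). In LPS/LPS minus control it belonged to Slc34a1 (-2.01), Atp11a (-1.42), Slc4a1 (0.13), Podxl (-0.24), Cdh5 (0.44), Col1a2 (0.48), Mrc1 (0.53), Cxcr2 (0.23), Cd3e (0.29) and Itga2b (0.05) for the same lists. In LPS/LPS minus LPS it belonged to Slc6a19 (-0.91), Atp11a (-1.82), Slc12a3 (-0.81), Wt1 (0.52), Pecam1 (-0.57), Col1a2 (0.25), Ly6c2 (-0.52), Elane (0.42), Cd3e (0.32) and Ppbp (0.32). The lowest adjusted p among them was 0.12, for Atp11a in LPS/LPS minus LPS.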

How the data were processed

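Gene expression was measured on 13 arrays. RNA was extracted with the PicoPure kit and 2 ng per sample was labelled by the WT Pico method, per the labels' protocols. The authors deposited 1 log2 value per probe set and array. RMA and Partek 6.6 are the tools named in the submitters' processing notes. Not given in the sources used here are the background step, the probe annotation and the build. Where RMA leaves background signal, a change of a dim gene is understated. The number of arrays limits the precision.

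Of 41345 probe sets, 23521 had 1 gene symbol in the platform annotation, 1814 had several and 16010 had none. Only the first kind was used, and 33 probe sets with several symbols that include a chemokine ligand were left out. All 34 ligand genes matched RefSeq (GRCm38.p6) by Entrez identifier. All arrays entered 1 limma 3.58.1 fit (lmFit and eBayes, R 4.3.3), with 22180 genes and no covariates. The Benjamini-Hochberg adjustment ran over all genes, with a threshold of 0.05. Intervals are limma's 95% intervals per gene. The fit was tested on simulated data. Pairs of arrays correlated across genes at 0.747 to 0.906, and 0 pairs were identical.

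Values on every array were given for ligands with a mean above the Olfr level, overall or in any group, for the 4 lowest p per comparison, and for members singled out after their values were seen. Of each pathway and marker list, counts and the lowest p per comparison were given, and receptors of the ligands above the level. The members, the lists and the Olfr level were chosen with earlier results of these data known. Alternatives varied the normalization, the probe set per gene, the Olfr level, array weights, moderation, blocks and the arrays included. Figures were drawn with matplotlib 3.10.9.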

Additional observations from a re-analysis of the deposited data

Results flagged for a closer look

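Within a group, 8 of the 102 combinations of ligand and group held an array far from the rest, where about 5.1 would be flagged by chance at 1 in 20. Ccl5 was at 6.60 in LPS replicate 4, against 4.80 to 5.08 on the other LPS arrays. Cxcl9 was at 5.79 in LPS replicate 2, against 3.82 to 4.01, and Cxcl17 was at 3.50 in LPS replicate 3, against 4.02 to 4.08. Among the LPS/LPS arrays, replicate 1 had Cxcl14 at 5.04, against 4.63 to 4.75, and Xcl1 at 4.16, against 3.26 to 3.51. LPS/LPS replicate 5 had Ccl26 at 3.39, against 3.74 to 3.88, and Cxcl15 at 3.93, against 3.02 to 3.26. In control, Ccl17 was at 3.87 in replicate 2, against 3.17 to 3.23. The sources of these single values were not tested.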

How the results depend on the processing

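Under every alternative that was run, limma called 0 chemokine ligands in each comparison. The count of all genes called moved, and the cause was not tested. In LPS against control it was 0, and became 7 with quantile normalization, 3 among genes above the Olfr level, 30 with array weights, 7 with an intensity trend and robust moderation, and 0 to 24 without 1 array. In LPS/LPS against control it was 2, and became 4 with quantile normalization, 1 with array medians subtracted, 0 in a fit of the 2 groups alone, 4 with the array spread as a block and 0 to 3 without 1 array. In LPS/LPS against LPS it was 14, and became 2 in a fit of the 2 groups alone, 41 with array weights and 5 to 97 without 1 array, 97 being without LPS replicate 1. The F-test count of 14 became 41 with array weights and 1 to 39 without 1 array. With LPS/LPS replicate 5 and LPS replicate 4 both left out, a choice made after seeing the data, these counts were 0 for LPS against control, 0 for LPS/LPS against control, 1 for LPS/LPS against LPS and 0 for the F-test. Same-numbered arrays did not deviate together (correlations of -0.351 to 0.215, over 0.1 for 3 of 12 pairs), so the numbers were not taken as pairs; with the replicate block the counts were 3, 0 and 4 in the same 3 comparisons and 2 in the F-test. The number of ligands above the Olfr level was 5, 0 with the Olfr maximum, 33 with the Olfr median and 4 or 5 without 1 array. The median ligand difference was 0.278 for LPS/LPS minus LPS among genes above the Olfr level, where 5 ligands are left, and -0.015 for LPS minus control within the wide arrays. Without 1 array it ran from -0.12 to -0.025 for LPS minus control, 0.059 to 0.13 for LPS/LPS minus control and 0.13 to 0.20 for LPS/LPS minus LPS.

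Single differences were rerun for the 15 ligands whose choice followed the rule on level and p, not for the other 19. The narrow arrays hold 1 LPS array, replicate 1, so values there that involve LPS have 1 sample in that arm. Among the 15, these uncalled differences turned sign. Ccl5 in LPS minus control was -0.039 with quantile normalization, -0.084 with array weights, -0.049 with the spread block, -0.23 within the narrow arrays, -0.38 without both arrays, and -0.38 to 0.22 without 1. Ccl27a in LPS/LPS minus LPS was -0.0072 with quantile normalization, -0.000895 with medians subtracted, -0.10 with the spread block, -0.021 in the wide and -0.21 in the narrow arrays, and -0.040 to 0.18 without 1. Within the wide arrays, Ccl11 in LPS minus control was 0.028, Cxcl13 in LPS/LPS minus LPS was 0.22, and in LPS/LPS minus control Ccl24 was -0.10, Ccl9 0.30 and Cxcl3 -0.096. Within the narrow arrays, Ccl3 in LPS/LPS minus control was -0.44, and in LPS/LPS minus LPS Ccl9 was -0.23 and Cxcl14 -0.058. Without both arrays, Ccl24 in LPS minus control was 0.047 and Ccl22 in LPS/LPS minus LPS was -0.0036. Without 1 array, LPS/LPS minus control ran from -0.064 to 0.30 for Ccl3, -0.20 to 0.053 for Cxcl16 and -0.17 to 0.055 for Ccl9, and LPS minus control of Ccl24 from -0.23 to 0.047. Signal near the Olfr level and the few arrays limit what the ligand values can show.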
